A study of Rattus norvegicus with 6 samples.

Results

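The guide strands of the let-7 family and of miR-98 were examined in small RNA libraries of rat cortical neurons stimulated with BDNF or vehicle. The members were the rows rno-let-7a-5p, rno-let-7b-5p, rno-let-7c-5p, rno-let-7d-5p, rno-let-7e-5p, rno-let-7f-5p, rno-let-7i-5p and rno-miR-98-5p, chosen by name, which are 8 of 649 mature miRNAs listed. All 8 passed the filter of at least 10 RPM (reads scaled to equal library totals) on average in one condition, as did 336 miRNAs in all. The neurons came from Sprague-Dawley rat embryos of both sexes at embryonic day 18 and were kept in culture for 7 days according to the labels, with fluorodeoxyuridine to stop other cells from dividing. Of 6 libraries, 3 were from neurons given 100 ng/ml BDNF and 3 from neurons given the vehicle, 0.1% BSA, in each case for 20 min, and each condition had replicates 1 to 3. Whether a culture pooled several litters is not stated in the sources used here.

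MicroRNAs of the let-7 family bind mRNAs through a shared seed, the stretch near their 5′ end, and rise as neural cells leave the cell cycle and mature. The precursors are held back by Lin28, an RNA-binding protein that grips the terminal loop of the hairpin and hinders cleavage by Dicer. In neurons, BDNF is known to raise Lin28a and thereby to lower let-7 levels, so the family is a natural one to read in these libraries. Lin28 itself is a protein and was not measured here.

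The mature sequences show why the 8 belong together and how little separates them. They are printed from RefSeq (GRCr8), 5′ to 3′, with the seed (bases 2 to 8) in capitals.
let-7a-5p: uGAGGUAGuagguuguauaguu
let-7b-5p: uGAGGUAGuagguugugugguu
let-7c-5p: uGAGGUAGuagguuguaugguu
let-7d-5p: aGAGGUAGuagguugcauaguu
let-7e-5p: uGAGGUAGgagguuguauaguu
let-7f-5p: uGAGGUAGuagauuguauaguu
let-7i-5p: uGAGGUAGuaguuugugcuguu
miR-98-5p: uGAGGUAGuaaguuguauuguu
let-7g-5p: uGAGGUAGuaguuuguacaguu

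All are 22 bases long and carry the seed GAGGUAG. A search of the 583 listed miRNAs that matched a RefSeq name found 9 with this seed, the 8 members and rno-let-7g-5p, which the naming rule leaves out and which is therefore reported beside the family. Among the 28 pairs of members, 4 differ by 1 base, and the widest pair by 6. Counting from 1 at the 5′ end, let-7a-5p differs from let-7c-5p by A19G, from let-7e-5p by U9G and from let-7f-5p by G12A, and let-7b-5p differs from let-7c-5p by G17A. The mapping of the reads allowed 1 mismatch, and whether reads of these 5 members were exchanged between neighbours was not tested. The sum over the members is not touched by exchange among them.

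The members are encoded by 11 loci in the RefSeq table (GRCr8), several of them in clusters. Let-7a-1, let-7f-1 and let-7d lie within 2150 bases on the plus strand of chromosome 17 (mature ends at chr17:16320145-16322294). Let-7c-2 and let-7b lie within 430 bases at chr7:118683636-118684065, and let-7f-2 and miR-98 within 633 bases at chrX:24460052-24460684, in both cases on the plus strand. Of the other loci, let-7i lies on the minus strand at chr7:60527935-60527956 and let-7e on the plus strand at chr1:67350243-67350264. Because let-7a-5p, let-7c-5p and let-7f-5p each come from 2 hairpins with the same guide, their counts cannot be assigned to either locus.

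The loop between the guide and the opposite strand is where Lin28 binds, and its best known contact is the tetramer GGAG. Loops were searched for GGAG on the RNA strand only, in the 10 hairpins of the family, let-7g included, for which the table holds the hairpin and both arms. It was found in 8 of them, always 4 bases before the opposite strand. Let-7c-2 was among those without it. Outside the family, 16 of 253 loops held it (6.32%), and 1 of 9 among loops as long as those of the family, 23 to 36 bases. Examples with the tetramer, here in capitals, and the loop of let-7c-2 without it are as follows.
let-7a-1 loop: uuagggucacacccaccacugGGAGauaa
let-7i loop: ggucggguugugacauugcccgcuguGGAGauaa
let-7c-2 loop: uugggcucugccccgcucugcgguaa

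The family was among the most abundant miRNAs of these neurons. In control replicates 1 to 3 the 8 members took 16.5%, 17.8% and 18.8% of all miRNA reads, and in the BDNF replicates 15.8%, 17.2% and 15.3%. Libraries held between 10374120 and 12533029 reads assigned to miRNAs. The rarest value, miR-98-5p in control replicate 3, rested on 11998 reads and the highest, let-7c-5p in control replicate 2, on 773902, so that counting error was at most 0.913% and the spread between replicates set the precision. In a whole-culture sample, fewer cells that express a miRNA and less of it per cell cannot be told apart.

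Levels fell into 4 tiers in control neurons. Since all members have the same length, their RPM, normalized with edgeR's TMM factors, were compared directly, although the ligation of adapters can favour some sequences over others. Let-7c-5p was the most abundant, with 59587 ± 11552 normalized RPM (SD, n = 3), followed by let-7f-5p with 41157 ± 7774 and let-7i-5p with 37291 ± 3039. These 3 did not differ beyond their spread: the log2 ratio of let-7c-5p to let-7f-5p in the same library was 0.53 ± 0.55 (SD, n = 3), and that of let-7f-5p to let-7i-5p 0.13 ± 0.17. The next step down was clear, since let-7i-5p exceeded let-7b-5p in all 3 control libraries, with a log2 ratio of 1.36 ± 0.46. Let-7b-5p and let-7a-5p were level, at 14805 ± 3478 and 14707 ± 1178 normalized RPM (log2 ratio -0.02 ± 0.31). Let-7a-5p in turn exceeded let-7d-5p by a log2 ratio of 2.06 ± 0.26. Let-7d-5p and let-7e-5p shared the third tier, with 3590 ± 799 and 3217 ± 273 normalized RPM. MiR-98-5p was the least abundant at 1221 ± 162, below let-7e-5p by a log2 ratio of 1.40 ± 0.18. Let-7g-5p, the guide with the same seed outside the naming rule, had 38595 ± 3606 normalized RPM and thus lay close to let-7i-5p.

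**Figure D1:**
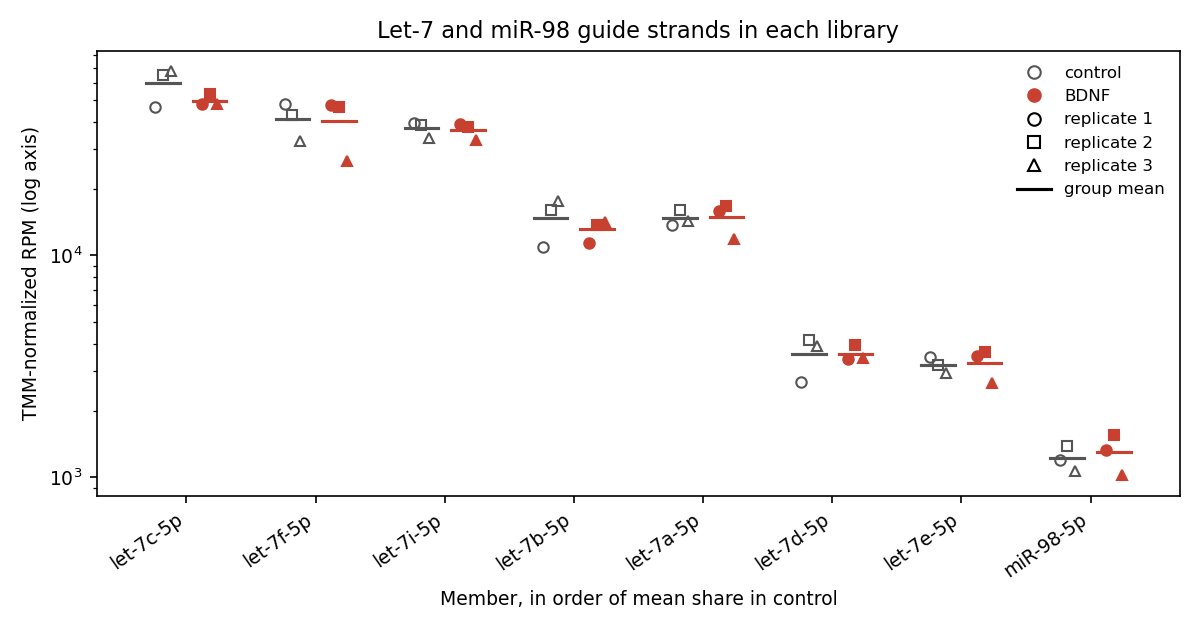
TMM-normalized RPM (log axis) of each member in the 3 control libraries (open grey) and the 3 BDNF libraries (filled red), with symbols for the replicate number and bars for group means. By the steps between neighbours in level, the members fall into the same 4 tiers in both conditions. Control and BDNF points overlap for all 8.

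By the steps between neighbours in level, the BDNF neurons showed the same tiers. There let-7i-5p exceeded let-7a-5p by a log2 ratio of 1.31 ± 0.15, let-7b-5p exceeded let-7d-5p by 1.85 ± 0.17, and let-7e-5p exceeded miR-98-5p by 1.34 ± 0.09 (SD, n = 3 for each). Only the order of let-7a-5p and let-7b-5p was exchanged, a pair whose log2 ratio of 0.17 ± 0.38 in BDNF neurons was again within its spread. Let-7c-5p and let-7i-5p are not neighbours in level, and let-7c-5p was higher in every library of both conditions. In BDNF replicates 1 to 3 it had 48154, 53032 and 47878 normalized RPM against 39033, 37666 and 32932. The top tier was thus not level in BDNF neurons. Let-7c-5p, let-7f-5p and let-7i-5p together made up between 76.4% and 80.7% of the family's reads in the 6 libraries.

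Within that total, the make-up of the family varied between replicates. The share of let-7c-5p in the family was 28.0%, 34.6% and 38.9% in control replicates 1 to 3 and 28.3%, 30.0% and 34.0% in the BDNF replicates. The share of let-7f-5p was 29.0%, 22.9% and 18.8% in control and 28.0%, 26.3% and 19.0% in BDNF neurons. Replicate 1 was thus low in let-7c-5p and high in let-7f-5p, and replicate 3 the reverse, in both conditions. In control neurons the share of let-7a-5p varied least for its size, with 8.37 ± 0.17% in control and 9.09 ± 0.55% in BDNF neurons (SD, n = 3). The share of miR-98-5p was 0.695 ± 0.070% and 0.795 ± 0.077%. For all 8 members the shares in control and BDNF libraries overlapped.

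**Figure D2:**
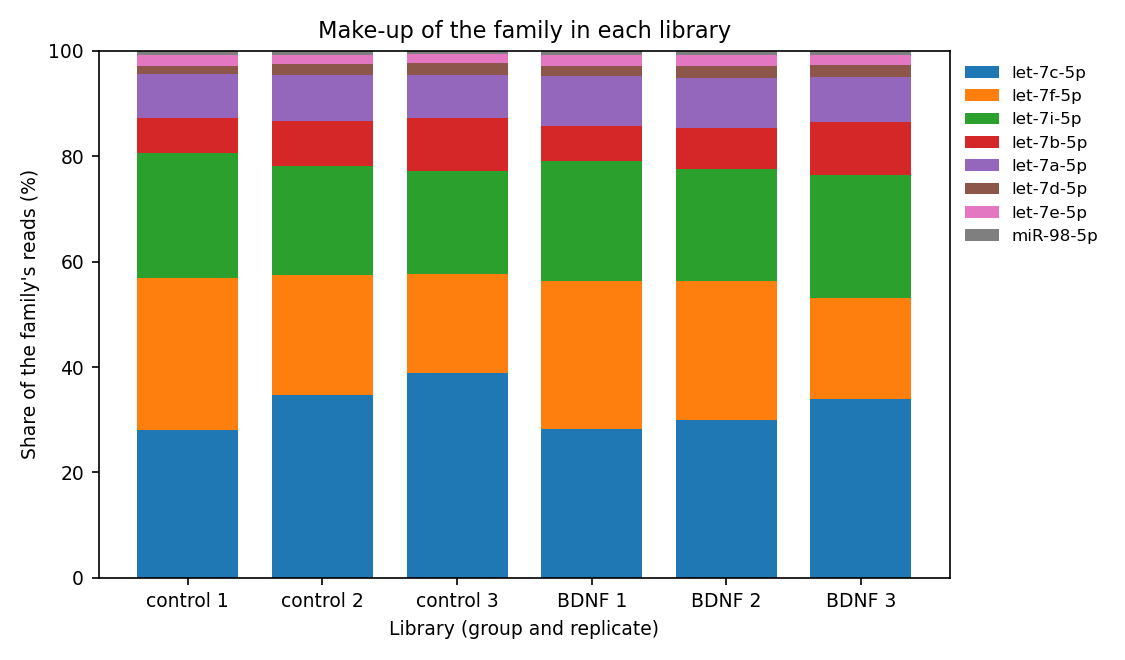
Stacked bars of each member's share (%) of the reads of the 8 guide strands, one bar per library. Let-7c-5p takes 28.0% in control replicate 1 and 38.9% in control replicate 3, while let-7f-5p takes 29.0% and 18.8%.

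After 20 min of BDNF, none of the 8 guide strands passed the adjusted threshold, and let-7c-5p passed the unadjusted one only in some fits, described after the counts. In edgeR's quasi-likelihood test across 336 miRNAs, 0 of 8 members had an adjusted P-value below 0.05, against 0% of all miRNAs tested. At an unadjusted P-value below 0.05 the count without a block was again 0 of 8, where 2.98% of all miRNAs tested passed, and DESeq2 also called 0 of 8 at either threshold. The log2 fold changes (BDNF/control) of the members ran from -0.26 to 0.09, with a median of -0.01, close to the median of 0.00 for all miRNAs tested. For no member did the BDNF libraries all lie on one side of the control libraries, which was the case for 7.14% of all miRNAs tested.

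Let-7c-5p, the most abundant member, had the lowest fold change. It was measured at 46357, 64729 and 67675 normalized RPM in control replicates 1 to 3 and at 48154, 53032 and 47878 in the BDNF replicates. The BDNF values sat close together, below control replicates 2 and 3 but above control replicate 1. Its log2 fold change was -0.26 (standard error 0.16, 95% interval -0.64 to 0.12), and its unadjusted P-value in edgeR was 0.148. The adjusted P-value in edgeR was 0.999, which was also the smallest of all miRNAs tested. In the blocked fit, which compares BDNF with control within each replicate number, let-7c-5p passed the unadjusted threshold, with a log2 fold change of -0.24 (standard error 0.10, 95% interval -0.48 to -0.01), but its adjusted P-value in edgeR was 0.23. It was the only member to do so, 1 of 8, in a fit in which 20.5% of all miRNAs tested passed, 12.8% as lower and 7.74% as higher. Its ratios of BDNF to control within replicates 1 to 3 were 1.04, 0.82 and 0.71, so by normalized RPM the lower level was not seen in replicate 1. In RPM without TMM factors, let-7c-5p was lower there too, with 46044 in control and 44668 in BDNF replicate 1. In blocked fits without 1 replicate, let-7c-5p passed the unadjusted threshold without replicate 1 (log2 fold change -0.38), where 96 of 338 miRNAs tested passed. It also passed without replicate 2 (-0.22), where 35 of 337 passed. Without replicate 3 it did not pass (-0.11), and 34 of 336 did. Without control replicate 1, the fit without the block also took let-7c-5p past the unadjusted threshold, with a log2 fold change of -0.39. In that fit 32 of 337 miRNAs tested passed.

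Let-7b-5p, which differs from let-7c-5p by 1 base and shares a cluster with one of its precursors, showed a similar layout. It had 10876, 16052 and 17488 normalized RPM in control replicates 1 to 3 and 11321, 13737 and 14177 in the BDNF replicates. As for let-7c-5p, the lowest normalized value was in control replicate 1, and BDNF was lower only in replicates 2 and 3. In RPM without TMM factors, BDNF was lower in replicate 1 too, with 10803 in control and 10502 in BDNF neurons. The log2 fold change was -0.18 (standard error 0.19, 95% interval -0.64 to 0.28). Its P-value in edgeR was 0.388 unadjusted and 0.999 adjusted. With the block it was -0.16 (standard error 0.08), which did not pass the unadjusted threshold, and the adjusted P-value was 0.34.

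The other abundant members stayed closer to 0. Let-7f-5p had 47984, 42791 and 32696 normalized RPM in control replicates 1 to 3 and 47602, 46420 and 26743 in the BDNF replicates. Both replicate 3 libraries were the lowest of their condition. The log2 fold change was -0.03, with a wide 95% interval of -0.63 to 0.57 in the fit without the block. With the block it was -0.06 (95% interval -0.26 to 0.14). Let-7i-5p had 39394, 38674 and 33807 normalized RPM in control and 39033, 37666 and 32932 in BDNF neurons. It was lower in all 3 replicates, by the small ratios of 0.991, 0.974 and 0.974. By normalized RPM it was the only member of which this held, where 23.8% of all miRNAs tested were lower in all 3 replicates. In RPM without TMM factors, let-7b-5p and let-7c-5p were also lower in all 3 replicates, and the share of all miRNAs was not counted. The log2 fold change of let-7i-5p, -0.03, had the narrowest 95% interval of the family, -0.31 to 0.25, which corresponds to between 0.81 and 1.19 times the control level. Let-7a-5p had 13745, 16020 and 14356 normalized RPM in control and 15917, 16714 and 11906 in BDNF neurons. It was higher in replicates 1 and 2 and lower in replicate 3, and its log2 fold change was 0.01 (95% interval -0.34 to 0.37).

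None of the 3 rarer members showed a direction shared by the replicates. Let-7d-5p had 2680, 4180 and 3910 normalized RPM in control replicates 1 to 3 and 3424, 3958 and 3444 in the BDNF replicates, with a log2 fold change of 0.01 (95% interval -0.41 to 0.43). It was the member with the largest rise in a single replicate, 1.28-fold in replicate 1, beside ratios of 0.95 and 0.88 in the others. Let-7e-5p had 3496, 3205 and 2951 normalized RPM in control and 3523, 3683 and 2653 in BDNF neurons, with a log2 fold change of 0.03 (95% interval -0.32 to 0.38). MiR-98-5p had 1201, 1392 and 1070 normalized RPM in control and 1329, 1552 and 1021 in BDNF neurons, and its log2 fold change of 0.09 (95% interval -0.33 to 0.51) was the highest of the family. No member was higher in all 3 replicates, as 16.1% of all miRNAs tested were. Over the whole family the lower ends of the 95% intervals lay between -0.64 and -0.31 without the block, and between -0.48 (let-7c-5p) and -0.085 (miR-98-5p) with it.

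**Figure D3:**
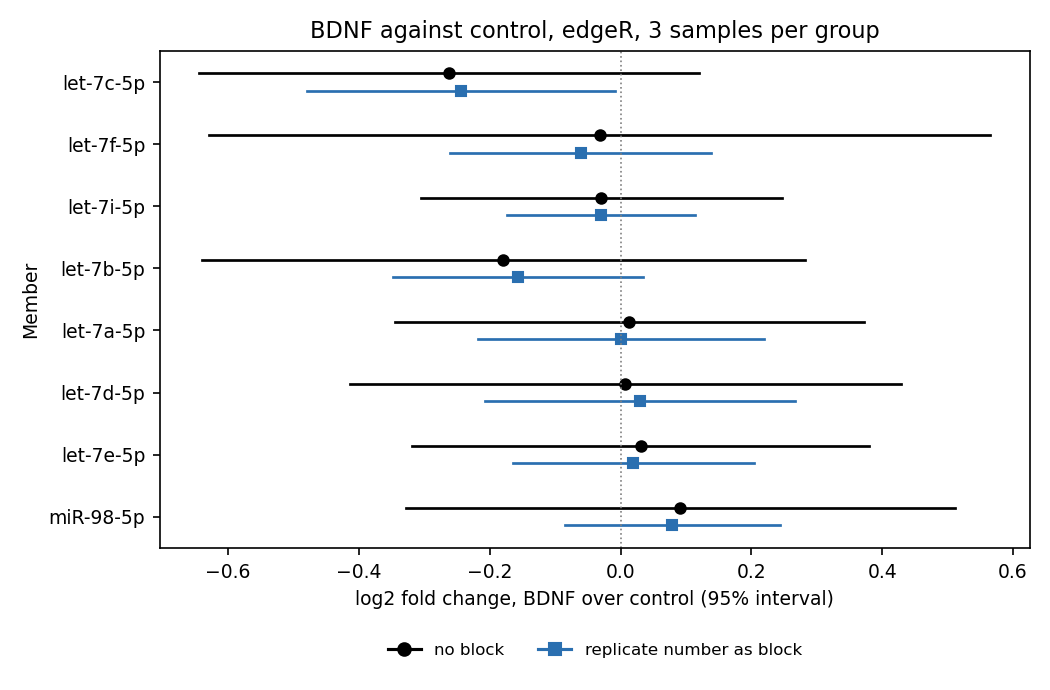
Log2 fold change (BDNF over control) of each member with its 95% interval, from edgeR without a block (black circles) and with the replicate number as a block (blue squares), 3 samples per condition. Intervals cross 0 for all members except let-7c-5p with the block, -0.48 to -0.01.

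Summed over the 8 members, normalized RPM were 165732, 187041 and 173953 in control replicates 1 to 3 and 170304, 176763 and 140755 in the BDNF replicates. The sum was higher with BDNF in replicate 1 and lower in the others, with ratios of 1.03, 0.95 and 0.81 (mean 0.93 ± 0.11, SD, n = 3). In RPM without TMM factors the ratios were 0.96, 0.96 and 0.81, so the direction in replicate 1 depended on the normalization. The difference of the mean log2 sums was -0.12, smaller than the spread between replicates of the same condition (pooled SD 0.14). It was -0.05 without let-7c-5p. When 1 library was left out, it was nearer to 0 without BDNF replicate 3 (-0.02) and control replicate 2 (-0.07), and farther from 0 without BDNF replicate 2 (-0.18), control replicate 1 (-0.16), BDNF replicate 1 (-0.15) and control replicate 3 (-0.12). Without both libraries of replicate 1, 2 or 3 it was -0.19, -0.13 and -0.02. With let-7g-5p added to the sum, the difference was -0.11. Let-7g-5p itself had a log2 fold change of -0.06 (95% interval -0.42 to 0.31).

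Differences between replicates did not run in parallel for all members. Replicates 3 and 1, compared after the values had been seen, differed for let-7f-5p by a log2 ratio of -0.55 in control and -0.83 in BDNF neurons, with replicate 3 lower in both. Let-7e-5p (-0.24 and -0.41), let-7i-5p (-0.22 and -0.25), miR-98-5p (-0.17 and -0.38) and let-7g-5p (-0.22 and -0.44) were also lower in replicate 3. Let-7b-5p was higher, by 0.69 and 0.32. Let-7a-5p differed little in control neurons (0.06) and was lower in replicate 3 of BDNF neurons (-0.42). Let-7c-5p and let-7d-5p were higher in replicate 3 in control neurons only, by 0.55 and 0.54, with -0.01 and 0.01 in BDNF neurons. Let-7f-5p and let-7d-5p share the cluster on chromosome 17, although let-7f-5p also has a locus on the X chromosome. The number of G and C bases was 7 in let-7f-5p and miR-98-5p, 9 in let-7c-5p, let-7d-5p, let-7e-5p and let-7i-5p, and 10 in let-7b-5p, and its part in these differences was not tested. Replicate number occurred once in each condition and was not confounded with BDNF.

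**Figure D4:**
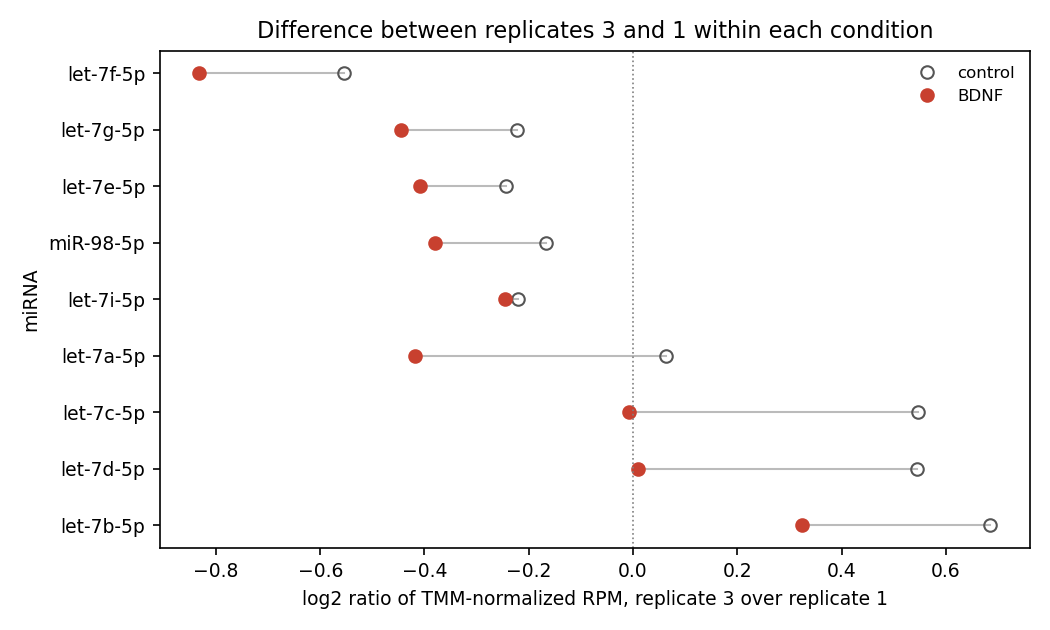
Log2 ratio of TMM-normalized RPM in replicate 3 over replicate 1, within control (open grey) and within BDNF (filled red), for the 8 members and let-7g-5p. Let-7f-5p lies lowest, at -0.55 and -0.83, and let-7b-5p highest, at 0.69 and 0.32.

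The miRNAs transcribed next to let-7 hairpins give a second view of the same loci. MiR-99a, miR-100 and their relative miR-99b, together with the miR-125 genes, lie in conserved clusters with let-7c-1, let-7a-2 and let-7e. None of the 5 guides examined passed the unadjusted threshold in edgeR without the block, and all 5 had log2 fold changes above 0, from 0.02 (miR-125b-5p) to 0.19 (miR-125a-5p), with a median of 0.06 beside 0.00 for all miRNAs tested, of which 165 of 336 were above 0. MiR-125a-5p had 4332, 5536 and 6365 normalized RPM in control replicates 1 to 3 and 4959, 5948 and 7593 in the BDNF replicates. It was higher with BDNF in each replicate, although the groups overlapped. By normalized RPM this also held for miR-99a-5p and miR-99b-5p, thus for 3 of the 5, where it held for 16.1% of all miRNAs tested. In RPM without TMM factors, miR-99a-5p and miR-99b-5p were lower with BDNF in replicate 1. With the block miR-125a-5p passed the unadjusted threshold, as 1 of the 5, where 20.5% of all miRNAs tested passed and 7.74% as higher, and its adjusted P-value in edgeR was 0.17. Let-7e-5p, from the same cluster as miR-125a, was 1.01, 1.15 and 0.90 times control in replicates 1 to 3, against 1.14, 1.07 and 1.19 for miR-125a-5p. The difference between these 2 miRNAs was not tested.

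Guide strands far outnumbered the opposite strands of their hairpins. There were 133, 172 and 172 guide reads for each read of the 11 opposite strands in control replicates 1 to 3, and 142, 120 and 114 in the BDNF replicates. BDNF replicate 1 was higher than its control, replicates 2 and 3 were lower than theirs, and the groups overlapped. The mean log2 ratio was 7.30 ± 0.21 in control and 6.96 ± 0.17 in BDNF neurons (SD, n = 3), a description without a test. Of the 11 opposite strands, 9 passed the filter, and 8 of these had log2 fold changes above 0 (median 0.21). Of all 336 miRNAs tested, 165 had log2 fold changes above 0. None of the opposite strands passed the unadjusted threshold without the block, and 3 of 9 did with it, as higher, where 7.74% of all miRNAs tested passed as higher, but 2 of these 3, let-7a-1-3p and let-7c-2-3p, have the same sequence. Their counts differed by at most 12 reads in any library, for example 2323 and 2335 in control replicate 1, so that they are 1 measurement listed under 2 names. The guide reads per opposite read given above count this sequence under both names and are lower for that. The 8 of 9 above 0 and the median of 0.21 also include it under both names. Its log2 fold changes, 0.38 under each name, were the highest of the 9. With this sequence counted once, the difference in mean log2 ratio moved from -0.34 to -0.31. Where the guide comes from a single hairpin, the excess ranged widely in control neurons, from 6.51 ± 1.63 guide reads per opposite read for let-7d to 2114 ± 285 for let-7i (SD, n = 3).

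**Figure D5:**
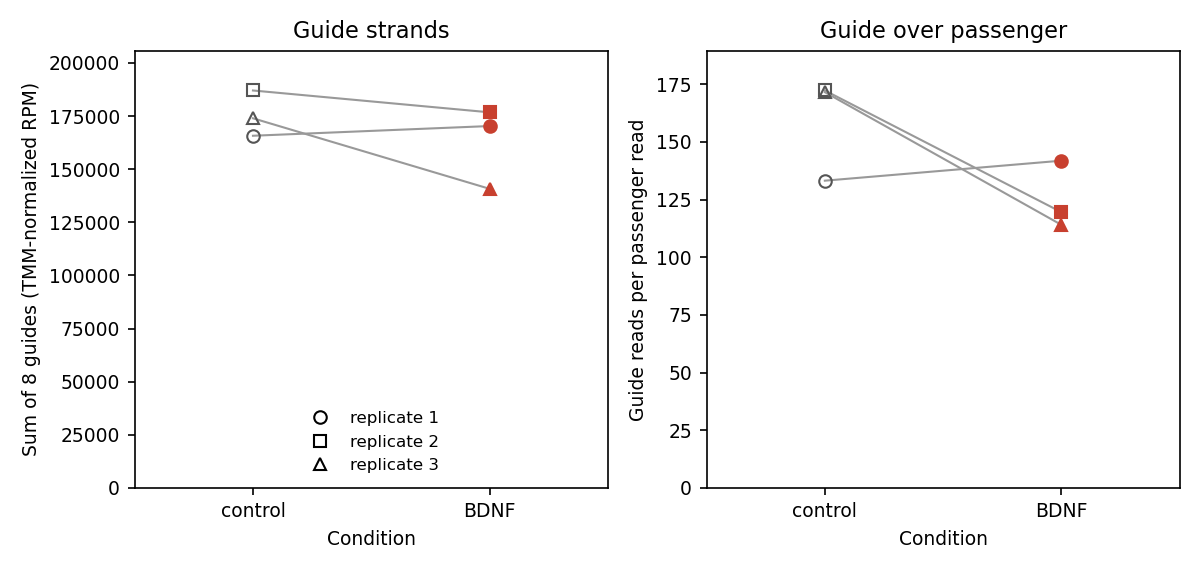
Left, the sum of the 8 guides in TMM-normalized RPM. Right, guide reads per opposite-strand (passenger) read, with let-7a-1-3p and let-7c-2-3p both counted. Lines join the control and BDNF library of the same replicate number, and both axes start at 0. BDNF is higher than control in replicate 1 in both panels (1.03-fold and 1.07-fold) and lower in replicates 2 and 3. Without TMM factors, the sum in BDNF replicate 1 is 0.96 times that of control replicate 1.

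The miRNAs outside these lists whose levels over the 6 libraries were most like the family sum were miR-106b-5p, miR-137-3p, miR-1839-5p, miR-708-5p and miR-672-5p. Likeness was the root mean square difference between mean-centred log2 levels over the 6 samples, which was 0.05 for miR-106b-5p and between 0.06 and 0.08 for the others, out of 313 candidates. MiR-106b-5p had 397, 411 and 387 normalized RPM in control replicates 1 to 3 and 373, 389 and 318 in the BDNF replicates. Like the family sum, by which it was chosen, it was lowest in BDNF replicate 3. Of the members, let-7a-5p was nearest to the sum (0.08), and let-7b-5p and let-7f-5p were farthest from it (both 0.25).

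Markers of neurons were abundant and those of other cell types were present at lower levels. The 4 neuron-enriched miRNAs examined (miR-9a-5p, miR-124-3p, miR-128-3p and miR-138-5p) summed to between 334964 and 392398 RPM in control and between 376521 and 411930 RPM in BDNF libraries. Most of this sum was miR-9a-5p, with a mean of 285547 normalized RPM in control and 309277 in BDNF neurons. The 5 glia-linked miRNAs summed to 5618 to 7332 RPM in control and 5654 to 7531 in BDNF libraries. Nearly all of that was miR-21-5p, and the other 4 (miR-146a-5p, miR-219a-5p, miR-219a-2-3p and miR-338-3p) summed to at most 54.8 RPM. The 5 vascular and blood miRNAs listed of 6 fixed reached 187 RPM at most, and no listed marker was at 0 in every library. The ranges of the 3 sums overlapped between conditions, and their part in the levels of let-7 was not tested.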

How the data were processed

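Small RNA libraries (NEBNext kit, HiSeq2000) of 3 control and 3 BDNF samples were analysed. The authors trimmed adapters, removed short and low-quality reads, matched the rest with Miraligner to rat mature miRNAs (miRBase 21; 1 mismatch allowed) and deposited raw read counts per miRNA, without normalization. The version of Miraligner and its treatment of reads matching several miRNAs are not given in the sources used here.

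Counts were tested with edgeR 4.0.16 (R 4.3.3): TMM factors (0.928 to 1.085), column sum as library size, quasi-likelihood test over 336 miRNAs (10 RPM or more on average in either condition), and Benjamini-Hochberg adjustment over all of them. The standard error is the size of the log2 fold change divided by the square root of F, and 95% intervals use the t distribution. For normalized RPM, library totals were multiplied by TMM factors. The test without the block was first tried on counts simulated without differences tied to replicate number. The blocked fit was not tried in this way. Neighbours in level were called different where the mean log2 ratio exceeded 2 SD and had one sign in all 3 libraries. Libraries of one condition differed by far more than sampling noise (chi-square per degree of freedom at least 220). Deviations from group means were correlated between same-numbered samples (correlations across 336 miRNAs of 0.80, 0.48 and 0.89 for replicates 1 to 3). Across the members alone the correlations were 0.92, 0.08 and 0.92, so replicate 2 did not show the pairing for the family. The numbers were taken to pair the samples. A blocked fit on these numbers is given where it changes a call, and also for let-7b-5p and let-7f-5p. P-values without the block measure the spread between 3 biological replicates per condition. Those with the block measure the spread of the differences within replicate numbers. An exact permutation test of 3 against 3 cannot go below 0.1 and was not used. Alternatives were DESeq2 1.42.0, other normalizations, no filter, the block and leaving out samples.

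The members, the opposite strands, cluster neighbours and markers, and the rule for miRNAs named by likeness (the 5 nearest to the family sum) were chosen with earlier results of these data known. Sequences and coordinates are from RefSeq tables (GRCr8). Counts per isomiR were not analysed here. The loop sequence of miR-98 is not reported here.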

Additional observations from a re-analysis of the deposited data

How the results depend on the processing

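No member passed an adjusted P-value of 0.05 under any of the 15 alternatives. At the unadjusted threshold, 1 member (let-7c-5p) was called with the replicate block, 0 to 1 when 1 sample was left out, and 0 to 2 when both samples of a replicate were left out from the fit with the block, the 2 being let-7b-5p and let-7c-5p without replicate 1. Across all miRNAs tested, the unadjusted count was 10, against 69 with the replicate block, 6 with library size only, 3 to 32 without 1 sample (32 without control replicate 1, 3 without control replicate 2) and 34 to 96 without 1 replicate with the block (96, 35 and 34 without replicates 1, 2 and 3). The adjusted count was 0, against 0 to 18 without 1 replicate with the block (18 without replicate 1, 1 without replicate 3). With fewer samples these fits rest on fewer degrees of freedom. Upper-quartile factors called 2 lower and 6 higher and library size only 4 and 2, against 5 and 5 with TMM.

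Of 120 values of members under alternatives, 22 had another sign than with all samples and TMM, all of them members within 0.1 of 0. With library size only, let-7a-5p and let-7d-5p were at -0.018 and -0.016, and with upper-quartile factors let-7f-5p was at 0.0067 and let-7i-5p at 0.0038. When 1 sample was left out, log2 fold changes ranged from -0.080 to 0.15 for let-7a-5p, -0.14 to 0.13 for let-7d-5p, -0.059 to 0.16 for let-7e-5p, -0.17 to 0.19 for let-7f-5p, -0.085 to 0.040 for let-7i-5p and -0.055 to 0.24 for miR-98-5p. With the block and without 1 replicate, the values of the other sign were -0.088 (without replicate 1) and -0.029 (without replicate 2) for let-7a-5p, -0.11 (without replicate 1) for let-7d-5p, -0.071 (without replicate 2) for let-7e-5p and 0.062 (without replicate 3) for let-7f-5p. Let-7b-5p (-0.33 to -0.03) and let-7c-5p (-0.39 to -0.11) stayed below 0 in every fit. The block changed no other call of a member. The difference in the family sum stayed below 0 under all 15 alternatives, from -0.19 to -0.02. Each member had at least 11998 reads per library, so counting error was small beside the spread between samples. The median standard error of the members was 0.17 without the block and 0.085 with it.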
